A study of Mus musculus with 11 samples.

Results

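Where newly made MacroH2A2 sat 3 hours after the start of labelling, and which of those sites held a smaller share of it 3 hours later, was followed in mouse embryonic stem (ES) cells with 2 ChIP-Seq libraries out of 11 in the series. Both are labelled as anti-HA libraries (antibody ab9110) from KH2 ES cells of the strain 129 X C57bl/6, and the label of the 3 hour library is in doubt for the reasons given below. By the labels the cells carry the modified transactivator M2rtTA at ROSA26 and an HA-tagged MacroH2A2 cDNA under TetO control downstream of Col1A1. One library was made 3 hours and the other 6 hours after adding doxycycline (Dox) at 2 μg/mL. Feeder MEFs were depleted by pre-plating on gelatin, and the cells were cycling without synchronisation. The anti-HA libraries labelled as the same line without Dox (background) and after 12 hours of Dox (the next time point) are given beside them. Anti-HA libraries from HA-H3.3 cells (3 and 6 hours of Dox) and an anti-MacroH2A2 library from ES cells, labelled as a pool of 2 replicates, were used to sort sites. Each condition has 1 library, so that no difference below has been set against a spread between replicates, and every interval given is a 95% counting interval only.

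MacroH2A2 is a variant of histone H2A that carries a large macro domain behind its histone fold and is best known from silent chromatin such as the inactive X chromosome. In a pulse of tagged histone, sites that exchange histones outside replication take up the tag in every cell, whereas the rest of the genome takes it up as cells pass through S phase. Because each library is scaled to its own total, a site that filled early takes a smaller share later even when it loses no tag. The log2 ratio of 6 over 3 hours is therefore a change in share, not in amount, and the 2 cannot be told apart in these libraries. H3.3 is the H3 variant that is deposited outside replication at promoters, active gene bodies and regulatory elements.

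The values are midpoints of distinct mapped intervals on chromosomes 1 to 19, as counts or as intervals per 1000000 in the library (ppm). The 3 hour library holds 16020686 of them and the 6 hour library 16224108, while the 12 hour library holds 17153206 and the no-Dox library 11381685, so that counts from the latter pair are not on the same scale. Promoters are the 600 bp on each side of the annotated start of a protein-coding gene (20796 outside the 238 tiles with the most no-Dox signal), gene bodies run from 2 kb downstream of the start to the end of genes of at least 5 kb (15408), and distal windows are 1 kb windows more than 10 kb from a start and outside genes (1122569).

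The library labelled 3 hours stood apart from the other HA-Macro libraries on chromosome Y and on part of chromosome 14. Chromosome Y took 0.111% of its intervals, against 0.0244% in the no-Dox library and 0.0219% and 0.0228% after 6 and 12 hours. The median 100 kb tile on Y was at 0.61 of the autosomal median at 3 hours and at 0.16 to 0.18 in the no-Dox, 6 and 12 hour ES libraries and the 3 HA-Macro MEF libraries. A stretch of chromosome 14 (mm9, from 70.4 to 73.3 Mb, 29 tiles, chosen after its values were seen) was at 0.85 of the autosomal median at 3 hours, against 0.49 and 0.51 after 6 and 12 hours, 0.51 in the no-Dox library and 0.57 to 0.62 in the HA-Macro MEFs. Its flanks were at 0.97 to 1.20 in all of these. In the other 3 ES libraries, of HA-H3.3 and of anti-MacroH2A2, the stretch was at 0.76 to 0.93 and Y at 0.29 to 0.34. The study gives its ES cells and its MEFs as male. Which of these levels of Y such cells give was not tested. The study describes anti-MacroH2A2 data from HA-Macro ES cells, before Dox and after 12 hours of it. Whether these are the replicates pooled in the anti-MacroH2A2 library, with the stretch at 0.93, was not established. On chromosome 8 the 6 and 12 hour ES libraries stood apart, with 5.78% and 5.79% of the intervals. The 3 hour library had 5.39% and the no-Dox library 5.47%. The HA-H3.3 libraries had 5.39% and 5.33% at 3 and 6 hours. Those of anti-MacroH2A2 had 5.5% in ES cells and 5.42% in MEFs, and the HA-Macro MEF libraries had 5.44% to 5.48%. The cause of these differences was not tested. In the ratios of 6 over 3 hours below, time on Dox and the cells used cannot be told apart. Reads from the construct itself, a cDNA without introns, would add to the exons of its gene. At H2afy2, the MacroH2A2 gene, the density of intervals in exons over introns was 1.50 (0.959 to 2.25) at 3 hours and 1.09 (0.693 to 1.64) at 6 hours, and both intervals include 1. It was 1.60 (0.916 to 2.61) without Dox and 1.29 (0.843 to 1.91) at 12 hours. The anti-MacroH2A2 libraries had 1.56 (0.874 to 2.58) in ES cells and 0.708 (0.302 to 1.42) in MEFs. The HA-Macro MEF libraries had 1.16 (0.52 to 2.25) at 3 hours and 1.52 (0.913 to 2.38) at 12 hours. At 6 hours the MEF value was 2.04 (1.14 to 3.41), an interval above 1. In the HA-H3.3 libraries it was 1.56 (0.765 to 2.87) at 3 hours and 1.05 (0.551 to 1.82) at 6 hours. At H3f3b, an H3.3 gene, it was 2.28 (1.25 to 4.49) at 3 hours, from 72 and 13 intervals, 1.20 (0.628 to 2.46) at 6 hours and 1.65 (0.656 to 4.93) without Dox, against 1.82 (1.06 to 3.28) in the HA-H3.3 library at 6 hours. Libraries of anti-MacroH2A2, which need no tagged construct, had 2.27 (0.495 to 21) in ES cells and 2.06 (0.583 to 11.1) in MEFs. The HA-Macro library at 12 hours had 1.09 (0.527 to 2.41), and the HA-Macro MEF libraries had 0.471 to 1.00. At H3f3a, the other H3.3 gene, it was 1.17 (0.832 to 1.63) at 3 hours. The construct in the library labelled 3 hours is not identified by these counts. With these libraries alone, ratios of 6 over 3 hours cannot tell another clone or line, or a wrong label, from an early time point. The study also describes a separate HA-Macro induction over the same times, sequenced to a lower depth, which was not analysed here. Across 23757 tiles the level at 3 hours had a Pearson r of 0.90 with HA-H3.3 at 6 hours and 0.62 with anti-MacroH2A2, and the level at 6 hours had 0.86 and 0.80, a description over tiles that share base composition and copy number. By Spearman rho the values were 0.89 and 0.69 at 3 hours and 0.89 and 0.80 at 6 hours. With HA-H3.3 at 3 hours both levels had a Pearson r of 0.87, so that a difference in HA-H3.3 was not seen by every measure. Without the chromosome 14 stretch the pooled log2 ratios were -0.30 for promoters and -0.19 for gene bodies, and without chromosome 8 they were -0.31 and -0.20. In both cases the pooled ratios of the 26 gene lists below stayed within their counting intervals. The stretch holds only 25 protein-coding starts, so leaving it out could hardly move these lists. Neither omission addresses the doubt about the label at the other sites.

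**Figure D1:**
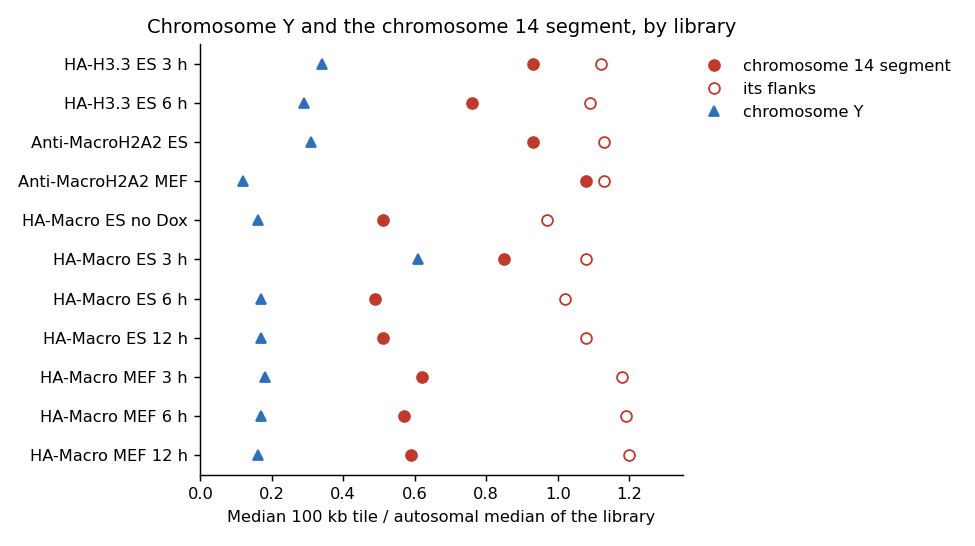
Median level of 100 kb tiles on chromosome Y (24 tiles), in the chromosome 14 stretch (29 tiles) and in its flanks of 3 Mb on each side, each divided by the autosomal median tile of the same library (x axis, no unit), for the 11 libraries (y axis). The library labelled HA-Macro ES 3 h stands at 0.61 for Y and 0.85 for the stretch, where the other HA-Macro libraries stand at 0.16 to 0.18 and 0.49 to 0.62.

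The DNA in front of a few start sites shows the range of sequence among promoters with lower and higher ratios. The following are the 250 bases upstream of 5 protein-coding genes, read from the mm9 sequence in the direction of the gene, with every CpG in capitals. Fgf4 (chr7:152047041-152047290, plus strand) has the most intervals among the pluripotency genes, and Pex6 (chr17:46848162-46848411, plus strand) is among the 10 promoters with the largest loss of share. Hoxd13 (chr2:74506117-74506366, plus strand) has the most intervals among the Hox genes, and Olfr873 (chr9:20104323-20104572, plus strand) and Gm11011 (chr2:169413246-169413495, minus strand) are among the 10 with the largest gain. None of these windows overlaps an annotated exon.
Pex6: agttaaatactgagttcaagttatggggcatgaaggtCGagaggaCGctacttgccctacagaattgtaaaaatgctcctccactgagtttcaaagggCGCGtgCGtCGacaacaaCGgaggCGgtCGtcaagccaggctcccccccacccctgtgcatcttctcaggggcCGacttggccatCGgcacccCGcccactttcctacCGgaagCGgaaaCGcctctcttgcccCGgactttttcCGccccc
Fgf4: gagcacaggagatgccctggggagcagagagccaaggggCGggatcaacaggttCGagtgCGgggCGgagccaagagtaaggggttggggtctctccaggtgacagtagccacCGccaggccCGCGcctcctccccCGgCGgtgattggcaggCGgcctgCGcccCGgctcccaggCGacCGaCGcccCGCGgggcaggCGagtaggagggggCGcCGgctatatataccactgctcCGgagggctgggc
Hoxd13: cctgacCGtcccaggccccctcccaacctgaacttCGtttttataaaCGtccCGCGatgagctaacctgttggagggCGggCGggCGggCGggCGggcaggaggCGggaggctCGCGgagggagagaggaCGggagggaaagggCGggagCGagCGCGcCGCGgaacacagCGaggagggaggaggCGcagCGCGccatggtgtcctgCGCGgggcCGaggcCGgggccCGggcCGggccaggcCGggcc
Olfr873: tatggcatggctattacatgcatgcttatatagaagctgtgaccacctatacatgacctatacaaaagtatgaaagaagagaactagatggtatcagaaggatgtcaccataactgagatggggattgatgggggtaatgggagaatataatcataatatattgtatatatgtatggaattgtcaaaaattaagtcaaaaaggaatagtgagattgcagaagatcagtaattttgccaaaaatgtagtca
Gm11011: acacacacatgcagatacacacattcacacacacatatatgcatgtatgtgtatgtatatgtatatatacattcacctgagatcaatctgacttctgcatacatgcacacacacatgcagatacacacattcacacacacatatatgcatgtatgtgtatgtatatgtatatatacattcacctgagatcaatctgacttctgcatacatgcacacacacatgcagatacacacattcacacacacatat
The Pex6 and Fgf4 windows hold 17 and 21 CpGs, and their promoters held fewer intervals at 6 hours. The Hoxd13 window is denser still, with 31, and its promoter held 24 distinct intervals at 3 hours and 34 at 6 hours, with a log2 ratio of 0.48 (-0.31 to 1.30). Among the single promoters with the most extreme ratios CpG content overlapped between the 2 directions. Gpr21, Uba2 and Gm9990, among the 10 lowest, had ratios of observed to expected CpG of 0.25, 0.15 and 0.25. Nfix and Cyp2r1, among the 10 highest, had 1.08 and 0.73. The rest did not overlap, with 0.73 to 0.85 among the 10 lowest and 0.09 to 0.31 among the 10 highest. The Olfr873 and Gm11011 windows have no CpG, and the Gm11011 window is a perfect tandem repeat with a period of 106 bases (100% of bases equal to the base 106 positions on), a sequence in which reads with several locations were placed at random.

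Protein-coding promoters held a smaller share at 6 hours than at 3 hours. They took 2.21% of all intervals at 3 hours, 1.79% at 6 hours and 1.49% at 12 hours, against 1.37% without Dox. The pooled log2 ratio of 6 over 3 hours was -0.30 (-0.31 to -0.29, from 354437 and 291136 intervals), or 0.811-fold. The mean level of a promoter was 1.06 ppm at 3 hours, 0.863 at 6 hours, 0.719 at 12 hours and 0.657 without Dox, so that 3 hours had the highest level and the 12 hour level came close to the uninduced one. Promoters of lincRNA genes (1204) were at -0.32 (-0.35 to -0.29) and those of snoRNA genes (1433), many of which lie in introns of ribosomal protein and other housekeeping genes, were likewise at -0.32 (-0.36 to -0.29). Pseudogenes (3943) were at -0.04 (-0.06 to -0.02), and snRNA genes (1312) were at 0.06 (0.02 to 0.10).

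Around the start site the ratio was lower on the transcribed side. The 600 bp downstream, which hold the first transcribed nucleosomes, went from 1.11 ppm per kb at 3 hours to 0.853 at 6 hours, a log2 ratio of -0.37 (-0.38 to -0.36). The 600 bp upstream went from 0.666 to 0.584, at -0.19 (-0.20 to -0.18). Farther into the gene, from 2 to 5 kb downstream, the ratio was -0.22 (-0.22 to -0.21), whereas from 5 to 2 kb upstream it was 0.06 (0.05 to 0.07). The highest 100 bp bin was centred 150 bp downstream of the start at both times, at 1.30 ppm per kb at 3 hours, 0.984 at 6 hours and 0.812 at 12 hours, and was present without Dox at 0.694. The dip in front of the start stood out less. In the bin centred 50 bp upstream the level went from 0.633 to 0.592, at -0.10 (-0.13 to -0.07).

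**Figure D2:**
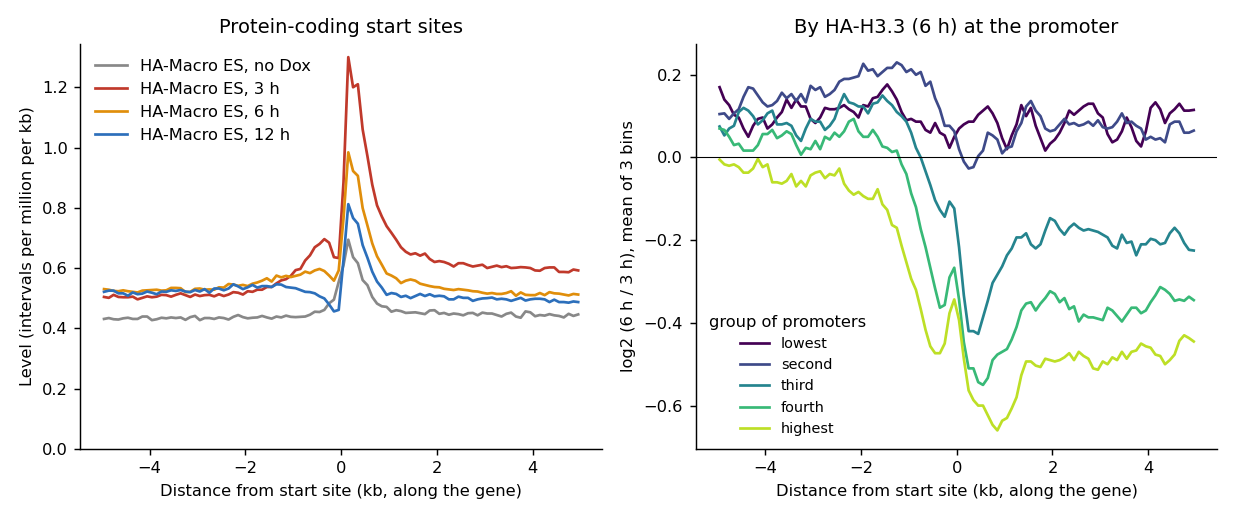
Left, level in ppm per kb (y axis) in steps of 100 bp along the 5 kb on each side of 20796 start sites (x axis, kb along the gene) in the HA-Macro ES libraries without Dox and after 3, 6 and 12 hours. Right, log2 of 6 over 3 hours, as a mean of 3 neighbouring bins, for 5 equal groups of promoters by HA-H3.3 at 6 hours. The 3 hour peak at 150 bp downstream, 1.30, is the highest of the 4, and the ratio downstream is lowest in the group with the most HA-H3.3.

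The ratio was lower where promoters carried more HA-H3.3, a measure from a library that does not enter the ratio. The doubt about the label of the 3 hour library applies to this order too. In 5 equal groups from the least to the most HA-H3.3 at 6 hours (4159 or 4160 promoters each), the pooled log2 ratios were 0.07 (0.05 to 0.09), 0.04 (0.02 to 0.06), -0.28 (-0.29 to -0.26), -0.43 (-0.44 to -0.42) and -0.50 (-0.52 to -0.49). A promoter of the top group had on average 0.785 ppm in the no-Dox library, 1.64 after 3 hours, 1.16 after 6 and 0.847 after 12. In the bottom group they were 0.440, 0.462 and 0.489 at 3, 6 and 12 hours, and 0.512 without Dox. Sorting by anti-MacroH2A2 gave an order that broke in the highest group, with -0.11, -0.22, -0.37, -0.38 and -0.30 from the lowest to the highest. Sorting by the no-Dox signal gave -0.20, -0.26, -0.29, -0.35 and -0.34.

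In gene bodies more of the difference between 3 and 12 hours was already present at 6 hours than at promoters. Summed over bodies, counts were 46.0% of all intervals at 3 hours, 40.3% at 6 hours, 39.3% at 12 hours and 39.1% without Dox. Intervals shared by overlapping genes were counted for each. The pooled log2 ratio of 6 over 3 hours was -0.19 (-0.19 to -0.19), an interval that covers counting error only. Beside windows of the same GC content it was -0.33. Per kb the level was 0.501 ppm at 3 hours, 0.439 at 6 hours and 0.429 at 12 hours, against 0.427 without Dox. Of the difference between 3 and 12 hours, 85.9% (85.3 to 86.5) was present at 6 hours in gene bodies, 78.9% (77.2 to 80.6) in the stretch from 2 to 5 kb downstream of the start, 63.9% (62.7 to 65.1) in the first 600 bp and 45.6% (43.3 to 47.9) in the 600 bp upstream, and 58.2% (57.1 to 59.3) over promoters as a whole. Bodies were ahead of promoters in each of the upper 3 groups by HA-H3.3. In the highest group 81.1% (80.7 to 81.6) was reached in bodies and 61.0% (59.8 to 62.3) at promoters. All of these shares rest on the same 3 libraries, so they are not independent of each other or of the features in which the 3 hour library stood apart.

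Among gene bodies, those of genes with HA-H3.3-rich promoters had the lowest pooled ratio. From the lowest to the highest group the pooled log2 ratios were 0.06 (0.06 to 0.07), 0.05 (0.04 to 0.05), -0.10 (-0.11 to -0.10), -0.27 (-0.27 to -0.27) and -0.44 (-0.44 to -0.43). In the highest group the level per kb was 0.660 ppm at 3 hours, 0.488 at 6 hours, 0.448 at 12 hours and 0.450 without Dox. Genes of 20 to 50 kb (4587) were at -0.31 (-0.31 to -0.31) and genes of over 200 kb (904) at -0.02 (-0.03 to -0.02). Of 13991 bodies with at least 100 intervals in both libraries together, 4288 were past 1.5-fold lower at 6 hours (30.6%) and 386 past 1.5-fold higher (2.76%). The standard deviation of log2 over these bodies was 0.50, where counting gives 0.15.

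**Figure D3:**
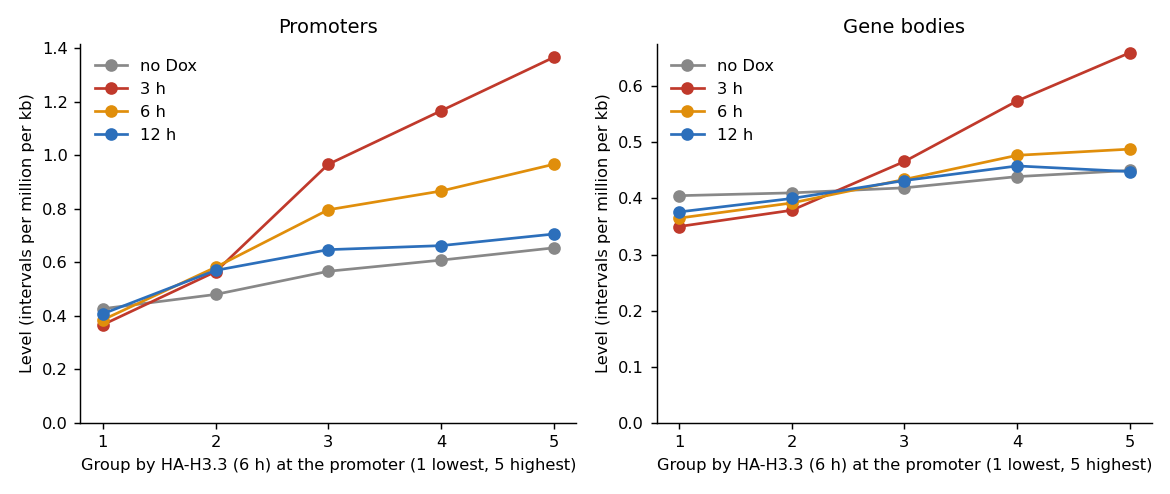
Level in ppm per kb (y axes, from 0) at promoters (left) and in gene bodies (right) for 5 groups by HA-H3.3 at 6 hours at the promoter (x axis, 1 lowest and 5 highest), in the HA-Macro ES libraries without Dox and after 3, 6 and 12 hours. In gene bodies of group 5 the level is 0.660 at 3 hours and 0.488 at 6 hours, near the 0.448 at 12 hours, whereas promoters are still midway at 6 hours.

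Outside genes the share was larger at 6 hours. Distal windows went from 36.7% of all intervals to 41.2%, at 0.17 (0.17 to 0.17), with 42.4% at 12 hours and 44.6% without Dox. Windows 10 to 20 kb from a start were at 0.23 (0.22 to 0.23), and the ratio was smaller with each step outward, to 0.06 (0.05 to 0.06) beyond 500 kb. The 10000 distal windows with the most anti-MacroH2A2 stood out with a log2 ratio of 0.55 (0.54 to 0.56). Their level was 0.670 ppm per kb at 3 hours, 0.979 at 6 hours, 1.08 at 12 hours and 0.603 without Dox. The 10000 windows with the most HA-H3.3 were at 0.15 (0.14 to 0.16), with 0.790 at 3 hours, 0.877 at 6 hours, 0.750 at 12 hours and 0.483 without Dox, so that 6 hours was the highest of the 4. The ratio above 0 did not hold in the 2000 windows richest in HA-H3.3 (-0.04, -0.07 to -0.02) or beside windows of the same GC content (-0.04). The 2 sets share 797 windows, 7.97% of each.

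Single promoters are measured with few intervals, a median of 15 at 3 hours and 13 at 6 hours. Of the 20796, 14573 had at least 20 intervals in both libraries together. With 1 read added to each count, 4791 of these were past 1.5-fold lower (32.9%) and 1170 past 1.5-fold higher (8.03%). The counts follow the number of promoters that pass, and the shares moved too. With a minimum of 50 intervals, which 2946 promoters passed, 1254 were lower (42.6%) and 71 higher (2.41%), and with no minimum 6211 (29.9%) and 2562 (12.3%). Windows of 300 bp gave 2201 of 6210 lower (35.4%) and 434 higher (6.99%), windows of 1000 bp gave 1836 of 18833 higher (9.75%), and 5 reads added gave 3719 lower (25.5%) and 752 higher (5.16%). Counting about the pooled ratio alone gives 25.8% and 3.27%, and the standard deviation of log2 was 0.62, where counting gives 0.48. Single promoters are therefore less certain than the groups above.

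The promoters that follow were chosen for their ratio, and their values are a description. The 10 lowest, ranked by the bound of the interval nearest to 0, were led by Gpr21, an orphan receptor gene, with 26 intervals at 3 hours and 3 at 6 hours. Its log2 ratio was -3.13 (-5.50 to -1.43). Abl1, which encodes a tyrosine kinase, had 27 and 4 intervals, and 15 at 12 hours. Pex6, which encodes an ATPase for the import of peroxisomal proteins, had the most intervals of the 10, with 53 and 13 and 26 at 12 hours, a log2 ratio of -2.05 (-3.05 to -1.15). Ect2, a regulator of cytokinesis, had 27, 5 and 5 intervals at 3, 6 and 12 hours. Uba2, a subunit of the SUMO activating enzyme, had 25, 4 and 8, and Aatf, a nucleolar factor, had 37, 8 and 8. D19Ertd737e and Gm9990 had 22 and 3, and 18 and 2 intervals. Polr3d, which encodes a subunit of RNA polymerase III (33 and 6 intervals), and Fam160b2 (28 and 5) lie in the chromosome 14 stretch, where the 3 hour library stood apart.

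The 10 highest held 10 intervals or fewer at 3 hours, except for Gm11011. Its promoter, the tandem repeat printed above, had 24 distinct intervals at 3 hours, 132 at 6 hours and 149 at 12 hours, against 12 without Dox, a log2 ratio of 2.44 (1.81 to 3.13). Only 5 lay there in the HA-H3.3 library at 6 hours and 2 in the anti-MacroH2A2 library. Nfix, which encodes a nuclear factor I transcription factor, had 10 intervals at 3 hours, 40 at 6 hours and 32 at 12 hours, a log2 ratio of 1.98 (0.96 to 3.15). Pla2g3, a secreted phospholipase gene, had 6, 29 and 42, against 21 in the shallower no-Dox library. Spata21, B530045E10Rik, Cyp2r1 and Olfr873 each had 2 intervals at 3 hours and 18 or 19 at 6 hours. Without Dox they had 6 to 10, so that for these 4 the 3 hour count is the lowest of the HA-Macro ES libraries. The remaining ones were 6030468B19Rik (6 and 29 intervals), Olfr9 (4 and 21) and Pldi (4 and 21).

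Cytosolic ribosomal protein and aminoacyl-tRNA synthetase genes had the lowest pooled promoter ratios of the 26 lists examined. The place of the synthetase genes is within counting error of respiratory chain (-0.74) and splicing factor genes (-0.73). With windows of 300 bp splicing factor genes were lower, at -0.80, than the synthetase genes, at -0.78. The counts of members in each list below are to be read against 32.9% past 1.5-fold lower and 8.03% past 1.5-fold higher over all promoters with at least 20 intervals. Those shares belong to promoters with a median of -0.33, and do not give the counting noise of lists near 0. The 72 cytosolic ribosomal protein promoters went from 1.88 ppm each at 3 hours to 1.01 at 6 hours and 0.677 at 12 hours, against 0.691 without Dox, a pooled log2 ratio of -0.90 (-1.0 to -0.79). Of the 71 with at least 20 intervals, 51 were past 1.5-fold lower and 0 past 1.5-fold higher, and the median was -0.85, against -0.33 over all 14573. Rpl23 had 52 intervals at 3 hours, 20 at 6 hours and 20 at 12 hours, and Rpl17 had 51, 20 and 11. Rpl32 had 35, 17 and 11 and Rpl8 had 37, 24 and 6, the latter within its counting interval of 0 (-0.64, -1.45 to 0.14). Ribosomal protein genes have many processed copies, and reads with several locations were placed at random. Aminoacyl-tRNA synthetase genes, which charge tRNAs, were at -0.83 (-1.06 to -0.60) over 17 promoters, with 10 of 16 past 1.5-fold lower. Among them Vars had 47 and 19 intervals, Yars 38 and 21, and Kars 30 and 28. Translation initiation and elongation factor genes were at -0.68 (-0.80 to -0.57) over 57, with 33 of 56 past 1.5-fold lower and 1 higher. They include Eif4h with 54 and 33 intervals, Eef1d with 40 and 34, and Eif2c2, which encodes an Argonaute protein, with 37 and 36.

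Other housekeeping genes were of the same order. Respiratory chain genes were at -0.74 (-0.85 to -0.63) over 69 promoters, with 39 of 68 past 1.5-fold lower and 1 higher, and splicing factor genes at -0.73 (-0.84 to -0.61) over 62, with 34 of 58 and 0 higher. Mitochondrial ribosomal protein genes were at -0.67 (-0.78 to -0.56) over 75, with 39 of 71 past 1.5-fold lower. Ndufa13, a subunit of complex I, had 74 intervals at 3 hours and 55 at 6 hours, Cox5a had 49 and 29, and Atp5j had 47 and 25. Srsf2 had 61 and 43, Hnrnpab 58 and 36, and Hnrnpul1 50 and 30. Mrps34 had 56 and 37, Mrpl43 49 and 31, and Mrps7 53 and 26. Proteasome genes were lower by less at their promoters, at -0.57 (-0.72 to -0.43) over 40, with 16 of 39 past 1.5-fold lower (41.0%, against 32.9% of all promoters), but by more in their bodies, at -0.83 (-0.88 to -0.78) over 34. Psma7 had 47 and 33 intervals at its promoter, Psmd3 43 and 28, and Psmd11 41 and 27. Bodies of splicing factor genes (57) were at -0.88 (-0.93 to -0.84).

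Genes tied to the cycling and pluripotent state of these cells were close behind. Cell cycle genes were at -0.66 (-0.84 to -0.49) over 29 promoters, with 15 of 29 past 1.5-fold lower. Rrm2, a subunit of ribonucleotide reductase, had 42 intervals at 3 hours, 14 at 6 hours and 21 at 12 hours, while Ccne1 had 44 and 23 and Cdk1 43 and 23. Replication-dependent histone genes were at -0.66 (-0.76 to -0.55) over 67, with 36 of 65 past 1.5-fold lower. Hist1h2bk (44 and 28 intervals) and Hist1h2ah (42 and 27) share a promoter and most of their intervals, and Hist2h2aa1, a member of a near-identical pair, had 35 and 32. Pluripotency genes were at -0.64 (-0.81 to -0.47) over 26, with 13 of 22 past 1.5-fold lower and 1 higher. Fgf4, a growth factor made by ES cells, had 72 and 39, Klf2 had 52 and 25, and Lefty2, an inhibitor of Nodal, had 39 and 35. Fibroblast marker genes, which feeder MEFs would express, were at -0.07 (-0.36 to 0.22) over 18 promoters, with levels of 0.707 ppm each at 3 hours and 0.675 at 6 hours. Promoter occupancy does not measure RNA, so these lists cannot show which cells were present. Of 10 with at least 20 intervals, 4 were past 1.5-fold lower and 2 higher, with Fn1 at 29 and 14, Twist2 at 26 and 13 and S100a4 at 11 and 27.

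Lists of chromatin factors and of regulators had pooled promoter ratios from -0.62 to -0.24. DNA and chromatin repression genes were at -0.62 (-0.80 to -0.45) over 21 promoters, with 10 of 21 past 1.5-fold lower, and at -0.76 (-0.80 to -0.72) over 20 bodies. Dnmt3b, a de novo DNA methyltransferase, had 48 and 35 intervals, Ring1 46 and 30, and Ehmt2 44 and 31. Histone variant and chaperone genes were at -0.47 (-0.67 to -0.27), with 9 of 21 past 1.5-fold lower (42.9%) and 1 higher, and at -0.68 (-0.73 to -0.63) over 19 bodies. Hira, which encodes the H3.3 chaperone, had 45 and 27 intervals, Nap1l1 43 and 25, and Daxx 37 and 28. H2afy2, the MacroH2A2 gene itself, had 10 intervals at its promoter at 3 hours, 18 at 6 hours and 7 at 12 hours, and its body was at 0.36 (0.17 to 0.55). H2afy, which encodes MacroH2A1, had 17 and 16 at its promoter and -0.50 (-0.64 to -0.35) in its body. Zinc finger genes with a Zfp symbol were at -0.49 (-0.55 to -0.44) over 348 promoters, with 107 of 268 past 1.5-fold lower (39.9%) and 7 higher, led by Zfp292 with 66 and 32, Zfp866 with 50 and 35 and Zfp553 with 47 and 43. Immediate early genes, which respond to growth factors within minutes, were at -0.48 (-0.65 to -0.31) over 26, with 11 of 26 past 1.5-fold lower (42.3%). Arc had 54 and 37, Dusp1 49 and 25, and Srf 45 and 40. Imprinted genes were at -0.24 (-0.43 to -0.06) over 31, with 7 of 22 past 1.5-fold lower (31.8%, near the 32.9% of all promoters) and 1 higher. Nnat had 47 and 28, Zdbf2 40 and 31, and Cdkn1c 37 and 36.

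Developmental regulators, most of which carry CpG-rich promoters that Polycomb complexes bind in ES cells, had ratios about 0 or above. Hox genes were at 0.13 (-0.04 to 0.30) over 40 promoters, with a mean level of 0.847 ppm at 3 hours, 0.928 at 6 hours, 0.810 at 12 hours and 0.670 without Dox. Of 27 with at least 20 intervals, 4 were past 1.5-fold lower and 2 higher. Hoxd13 had 24 and 34, Hoxb13 25 and 30, and Hoxb9 24 and 25. Their bodies were at 0.32 (0.24 to 0.40) over 18 genes. The 112 developmental transcription factor genes outside Hox were at -0.05 (-0.15 to 0.04) at promoters and at 0.29 (0.25 to 0.32) over 63 bodies, with 15 of 94 promoters past 1.5-fold lower and 6 higher. Foxd3, which ES cells express, had 36 and 22 intervals, Nkx1-1 31 and 29, and Neurog1 30 and 28. Collagen genes were at -0.01 (-0.17 to 0.16) over 41 promoters, with 1 of 28 past 1.5-fold lower and 4 higher, and Col18a1 at 43 and 39, Col8a2 at 37 and 32 and Col11a2 at 22 and 35.

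Families with tissue-restricted expression had pooled promoter ratios above 0. That was not particular to them. CpG-poor promoters as a whole, defined below, were at 0.09 (0.07 to 0.10). The group of promoters with the least HA-H3.3 was at 0.07 (0.05 to 0.09). Olfactory receptor genes (1106) were at 0.14 (0.09 to 0.19), with 0.417 ppm each at 3 hours, 0.459 at 6 hours, 0.488 at 12 hours and 0.568 without Dox, so that the 3 hour level was the lowest of the 4. Only 145 of them had at least 20 intervals, of which 11 were past 1.5-fold lower and 40 higher. Olfr1344 had 34 and 29, Olfr279 15 and 34, and Olfr222 20 and 22. Defensin genes were at 0.28 (0.07 to 0.48) over 53 promoters, keratin and keratin-associated genes at 0.12 (0.01 to 0.24) over 97, vomeronasal receptor genes at 0.07 (-0.01 to 0.16) over 324, cytochrome P450 genes at 0.10 (-0.04 to 0.24) over 96, serpin genes at 0.13 (-0.07 to 0.32) over 59 and clustered protocadherin genes at 0.23 (-0.06 to 0.52) over 24. Beside windows of the same GC content the keratin ratio turned to -0.06, the cytochrome P450 ratio to -0.07 and the serpin ratio to -0.03, while the defensin and protocadherin ratios were 0.10 and the olfactory receptor ratio 0.07. Without chromosome 8 the defensin ratio was 0.17. Among those that passed the minimum, 5 of 11 defensin, 11 of 56 keratin, 8 of 29 vomeronasal receptor, 5 of 38 cytochrome P450, 4 of 14 serpin and 3 of 10 protocadherin promoters were past 1.5-fold higher, and 2, 3, 4, 5, 2 and 1 past 1.5-fold lower. The share over all promoters, 8.03%, is no baseline for gains in these lists, since all promoters had a median of -0.33. What counting about 0 would give for such low counts is not reported here, so no excess of gains is read from them. Their members with the most intervals varied in both directions. Defb42 had 12 and 19, Defb36 9 and 19, and Defb20 11 and 16. Krt17 had 31 and 35, Krt80 25 and 33, and Krtap4-8 26 and 31. The vomeronasal receptor genes Vmn1r1 (19 and 30), Vmn1r90 (24 and 15) and Vmn1r79 (13 and 19) differed in direction. Cyp27b1, which activates vitamin D, had 25 and 24, Cyp2t4 18 and 29, and Cyp2u1 20 and 18. Serpinh1, a chaperone of collagen, had 14 and 28, Serpinb6a 25 and 19, and Serpinb6c 18 and 18. Among the protocadherins Pcdha3 had 13 and 13, Pcdha11 9 and 15, and Pcdhgc5 12 and 11.

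**Figure D4:**
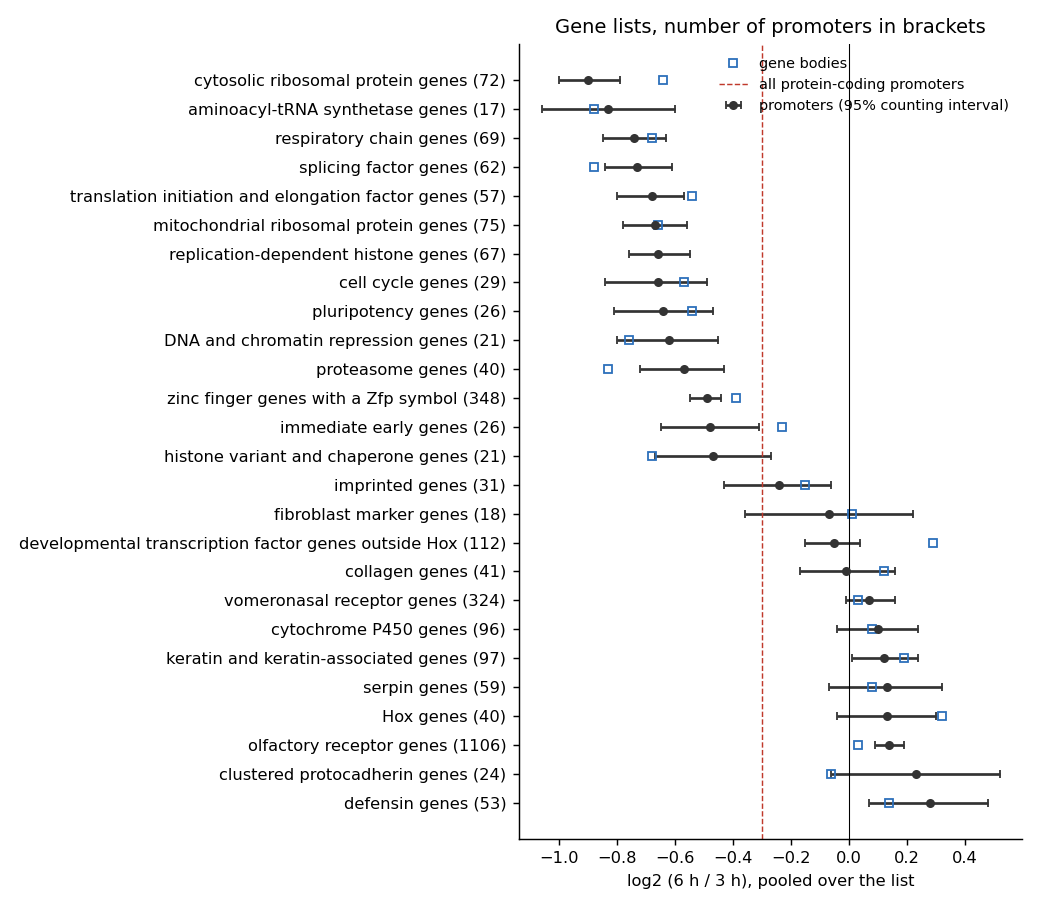
Pooled log2 of 6 over 3 hours (x axis) for the promoters of 26 gene lists (points, bars are 95% counting intervals) and for their bodies where at least 5 were measured (open squares). The dashed line is the value over all protein-coding promoters, -0.30. Cytosolic ribosomal protein genes stand lowest at -0.90, and Hox, developmental and tissue-restricted families stand about 0 or above.

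Genes chosen by name gave the following. Sox2, a pluripotency factor added to these after its values were seen, had 33 and 25 intervals at its promoter (-0.42, -1.23 to 0.38). Gli2, an effector of Hedgehog signalling, had 22 and 10 intervals at its promoter (-1.16, -2.40 to -0.02) and a body at -0.63 (-0.71 to -0.55). Clasp1, a microtubule regulator, had 12 and 4, with a body at -0.56 (-0.65 to -0.47), and Nfat5 had 22 and 17, with a body at -0.57 (-0.72 to -0.43). Body levels at 6 and 12 hours were 124 and 117 ppm for Gli2, 101 and 96.0 for Clasp1, and 38.4 and 29.5 for Nfat5. Zfhx3 had 30 and 21 at its promoter and a body at -0.20 (-0.27 to -0.12). The extracellular matrix genes differed. Col1a1, next to the construct, had 11 and 15 intervals at its promoter and a body at 0.32 (0.02 to 0.63), Col5a1 21 and 17 and a body at -0.05 (-0.17 to 0.07), Lox 4 and 5 and a body at 0.30 (-0.25 to 0.85), and Tgfb2 22 and 16 and a body at 0.32 (0.14 to 0.50).

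In 100 kb tiles the ratios were measured far above counting noise. Over 23757 tiles, with a median of 549 intervals at 3 hours and 603 at 6 hours, the standard deviation of log2 was 0.27, where counting gives 0.08, and the median was 0.05. Past 1.5-fold lower were 867 tiles (3.65%) and past 1.5-fold higher 212 (0.892%). Beside tiles of the same GC content these were 1225 and 68, and with the median tile at 0 they were 1103 and 123. By the number of protein-coding starts in the tile, the pooled ratio was 0.06 with 0, -0.00 with 1, -0.09 with 2 to 4, -0.13 with 5 to 9 and -0.22 with 10 or more. The last class, of 33 tiles, went from 0.829 to 0.713 ppm per kb.

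The 5 tiles with the lowest ratios all lie on chromosome 14, and 4 of them in the stretch where the 3 hour library stood apart. The exception, at chr14:27400001-27500000, holds the starts of 4930570N19Rik, Arf4 and Pde12. It had 109 ppm at 3 hours, 47.2 at 6 hours, 37.5 at 12 hours and 47.2 without Dox, a log2 ratio of -1.20 (-1.33 to -1.08). Outside the stretch the next were at chr18:77300001-77400000, with the start of Pias2, a SUMO ligase (1301 and 608 intervals), at chr11:104200001-104300000 within 1700081L11Rik (1312 and 622), at chr1:95300001-95400000 with the starts of Hdlbp, Gm17415 and Sept2 (1330 and 633), and at chr9:100600001-100700000 within Stag1, a cohesin subunit gene (1075 and 511). Of the 100 tiles with the largest loss outside the stretch, all 100 overlap a protein-coding gene and 50 hold no start, against 64.7% and 56.8% of all tiles. Of the 100 with the largest gain, 48 overlap a gene and 62 hold no start.

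The tile with the largest gain, ranked in the same way, was at chr8:111100001-111200000. It overlaps no protein-coding gene and lies upstream of Zfhx3. Its level was 38.9 ppm at 3 hours, 79.4 at 6 hours and 81.9 at 12 hours, against 43.5 in the no-Dox library, a log2 ratio of 1.03 (0.89 to 1.17). The next was at chr18:24800001-24900000, with 994 and 1810 intervals and the starts of Mocos, Gm9955 and Fhod3. The Mocos body, which encodes an enzyme of the molybdenum cofactor, had 36.2, 86.4 and 87.3 ppm at 3, 6 and 12 hours (log2 ratio 1.25, 1.11 to 1.40). The remaining 3 of the 5, at chr2:166100001-166200000, chr8:94500001-94600000 and chr5:120000001-120100000, overlap no protein-coding gene and went from 829 to 1515, from 695 to 1269 and from 858 to 1552 intervals. At 12 hours 4 of the 5 were above their 6 hour level in ppm, and the tile on chromosome 5 was below it, at 91.4 against 95.7. Chromosome 8 held 10 of the 100 tiles with the largest gain and 1 of the 100 with the largest loss, among 1219 tiles, and its median tile was at 0.15, against 0.02 to 0.08 on the other chromosomes.

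Over all tiles the log2 ratio had a Pearson r of 0.06 and a Spearman rho of 0.09 with GC content over 23757, but the 100 tiles with the largest gain had a median GC of 47%, against 41.4% over all tiles and 40% for the 100 with the largest loss outside the chromosome 14 segment. At promoters the ratio was near 0 up to 48% GC (0.00, -0.02 to 0.03, from 44 to 48%), -0.30 (-0.32 to -0.28) from 52 to 56%, and -0.42 to -0.43 from 60 to 72%. Distal windows of the same base composition went the other way, with 0.27 (0.27 to 0.28) from 48 to 52% and 0.25 (0.24 to 0.25) from 52 to 56%. Only above 60% did they turn, with -0.03 (-0.07 to 0.01) and then -0.18 (-0.25 to -0.11) from 64 to 68%, over 212 windows. Over the 14573 promoters the log2 ratio had a Pearson r of -0.17 with GC, -0.36 with the ratio of observed to expected CpG and -0.30 with log2 HA-H3.3, descriptions over promoters that share the same pair of libraries.

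Promoters rich in CpG (at least 50% GC and a ratio of observed to expected CpG of at least 0.6) were lower at 6 hours at every level of HA-H3.3. The 8886 of them were at -0.49 (-0.50 to -0.48), and their 5 groups by HA-H3.3 ran from -0.35 (-0.51 to -0.20) and -0.31 (-0.36 to -0.27) in the lowest pair to -0.53 (-0.55 to -0.52) in the highest. CpG-poor promoters (ratio under 0.4, 8346) were at 0.09 (0.07 to 0.10), yet the 274 of them with the most HA-H3.3 were at -0.29 (-0.34 to -0.23), from 1.27 to 1.04 ppm each. 

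**Figure D5:**
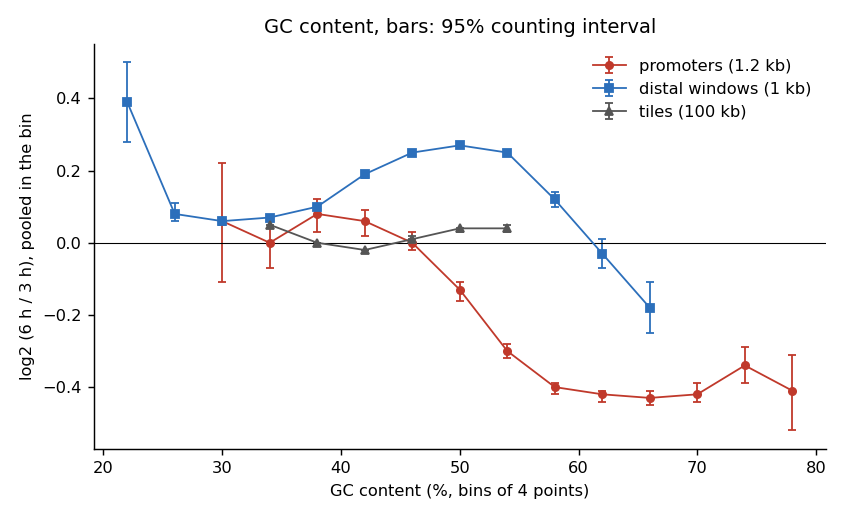
Pooled log2 of 6 over 3 hours (y axis, bars are 95% counting intervals) in bins of 4 points of GC content (x axis, percent) for promoters, distal windows and 100 kb tiles. At 52 to 56% GC promoters are at -0.30 and distal windows at 0.25, while tiles stay within 0.05 of 0.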

How the data were processed

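The labels and methods give anti-HA ChIP-Seq in ES cells, with reads collapsed by sequence, mapped to mm9 with Bowtie (1.0) at up to 1 mismatch, 1 random location kept for reads with several, and extension toward the 3′ end by the authors. The deposited files give interval positions (start and end) without score or strand, and all 11 were read. In the HA-Macro files intervals are 150 bp long and repeated ones make up 4.73% at 3 hours and 5.39% at 6 hours. In the files of the other antibody and of HA-H3.3 they are 400 bp long. Distinct intervals were counted by midpoint on chromosomes 1 to 19, in features from the GENCODE annotation of mm9 (the assembly NCBIM37, from which sequence and GC content were also taken). Overlapping promoters and genes share intervals. Tiles in the top 1% by no-Dox signal were discarded, with 622 protein-coding starts. Intervals are exact binomial (Clopper-Pearson, scipy 1.17.1), those of the shares reached by 6 hours come from the delta method, and all cover counting error only. With 1 library per condition no test was made. A promoter, body or tile was counted when past 1.5-fold. Scripts ran in python 3.11.15 and were tested on simulated data. Members, lists and features were chosen with earlier results of these data known. Genes named are 10 chosen by name, H2afy2 and H2afy, the 10 promoters and 5 tiles with the largest loss and gain, and the 3 members of each list with the most intervals, 1 of which is not reported here. Sox2, H3f3a, H3f3b and the gene bodies ranked by ratio were added after their values were seen. The alternatives varied repeats, scaling, discarded tiles, windows, minimum, added reads and GC matching. Leaving out the chromosome 14 stretch or chromosome 8 was chosen after seeing the data.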

Additional observations from a re-analysis of the deposited data

Results flagged for a closer look

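The share of chromosome Y in the library labelled 3 hours, 0.111%, lies outside the autosomes used here and was above that of the library without Dox, 0.0244%. In the HA-H3.3 ES libraries it was 0.0673% and 0.102%, and in the anti-MacroH2A2 ES library 0.10%.

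Gene bodies moved in opposite directions between 3 and 6 hours in ES cells and in MEFs, at -0.19 (-0.19 to -0.19) and 0.04 (0.04 to 0.05), with 1 library per time point in each cell type. The difference was not tested, and the ES value rests on the library labelled 3 hours, whose label is in doubt. Chromosome Y took 0.111% and 0.0219% at 3 and 6 hours in ES cells, and 0.0226% and 0.0219% in MEFs. Promoters were at -0.30 in ES cells and -0.03 (-0.04 to -0.02) in MEFs, and the bodies of the group with the most HA-H3.3 at the promoter at -0.44 and 0.09 (0.08 to 0.09).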

How the results depend on the processing

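The pooled ratio of promoters stayed below 0 under the 10 alternatives and 2 later additions run for it, with -0.32 with every interval counted, -0.35 with the median tile at 0, -0.29 with discarded tiles kept, -0.35 when GC-matched, -0.28 and -0.27 with windows of 300 and 1000 bp and -0.24 over all annotated genes. Gene bodies stayed below 0 too, with -0.20 with every interval, -0.19 with X and Y in the total or from 5 kb, -0.24 with the median tile at 0, -0.33 when GC-matched and -0.20 without chromosome 8. The distal windows rich in HA-H3.3 turned, to -0.04 when GC-matched and -0.04 for 2000 windows, and were at 0.17 with every interval, 0.10 with the median tile at 0 and 0.55 when chosen by anti-MacroH2A2. Promoters past 1.5-fold lower numbered 2201 with 300 bp and 1254 with a minimum of 50. Those past 1.5-fold higher numbered 434 with 300 bp, 1836 with 1000 bp, 2562 with no minimum, 71 with a minimum of 50 and 752 with 5 reads added. The SD over tiles was 0.27 with every interval and 0.13 for 1 Mb tiles, and tiles past 1.5-fold higher numbered 123 with the median tile at 0 and 68 when GC-matched. The cause was not tested, beyond the fewer promoters that a minimum or a narrow window leaves. Of 286 values for gene lists, 274 lay within the counting interval of the reported one, 11 outside it, and 1 (keratin genes) turned from a call above 0. When GC-matched, keratin genes turned from 0.12 to -0.06, cytochrome P450 genes from 0.10 to -0.07 and serpin genes from 0.13 to -0.03. Of 343 for single promoters, 342 lay within it, while Rpl8 was at 0.33 with 300 bp. That count says little about stability, because these intervals are wide, as at Gpr21 (-5.50 to -1.43), and the alternatives recount largely the same reads.

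No paired analysis was possible because each condition has 1 library. Time on Dox, the cells of each library and its run cannot be told apart. Ratios are of shares, so that a gain elsewhere lowers every other site. Single promoters hold a median of 15 and 13 intervals, and repeated intervals cannot be told from PCR copies.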

Other observations

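Some gene bodies moved far more than the pooled values. Bodies were ranked by the bound of their interval nearest to 0, so these values are a description. Among the 10 highest besides Mocos were Efcab10 (1.44 ppm at 3 hours, 5.61 at 6 hours and 5.65 at 12 hours), 1700069L16Rik (15.7, 36.7 and 39.1), Pvrl4, an adhesion gene (8.24, 18.1 and 14.9), Hsd17b2, which encodes a steroid dehydrogenase (19.7, 38.2 and 42.1), and Nwd1 (34.8, 64.2 and 68.9). Slc38a8 (15.4, 30.6 and 30.7), Hsd17b2 and Nwd1 lie on chromosome 8, whose whole share was higher at 6 hours. Among the 10 lowest outside the chromosome 14 stretch were Arf4, a regulator of Golgi transport (26.3, 9.62 and 8.28), Leng8 (14.9, 5.18 and 6.30), Med17, a Mediator subunit gene (16.5, 5.92 and 7.46), Kpna2, a nuclear import receptor gene (8.86, 2.90 and 3.50), and Fxr1, an RNA-binding protein gene (40.3, 16.0 and 14.4). Within the stretch Slc39a14 was at 40.5, 11.6 and 10.9, Xpo7 at 77.9, 25.2 and 22.5, and Fndc3a at 95.1, 32.1 and 28.4.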
